A study of Mus musculus with 847 samples.

Results

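The genes described here encode the subunits of glutamate receptors and the auxiliary proteins that are built into the same complexes. They were chosen by symbol, at a time when earlier results of these data were known. Of the 21076 genes in the count table, 34 belong to the set. There are 4 AMPA receptor genes, 5 kainate receptor genes, 7 NMDA receptor genes, 1 delta receptor gene (Grid1) and 7 metabotropic receptor genes. The auxiliary proteins are 6 transmembrane AMPA receptor regulatory proteins (TARPs, the Cacng genes), the 2 cornichons Cnih2 and Cnih3, and the kainate receptor partners Neto1 and Neto2. RNA of dissected brain tissue was sequenced in bulk from 59 C57BL/6JN mice, with at most 1 library for each mouse in each of 15 regions and 847 libraries in all. The 3, 12, 15 and 18 month groups each held 5 mice of either sex, the 21 month group 5 females and 6 males, and the oldest groups only males, 5 aged 26 months and 3 aged 28 months. The labels give no treatment and no altered gene, and the mice of a group are separate animals.

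Glutamate is the main excitatory transmitter of the brain. AMPA receptors carry the fast synaptic current and NMDA receptors a slower, calcium-permeable one, whereas kainate receptors act on both sides of the synapse and metabotropic receptors signal through G proteins. TARPs and cornichons bind AMPA receptors and alter their traffic and gating, Neto proteins do so for kainate receptors, and delta receptors bind cerebellins across the synaptic cleft.

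The median library held 6716032 reads (range 481444 to 26756735), and 10 held under 1000000. There were 51 to 59 libraries per region and 2 to 6 for each combination of region, sex and age. Mouse numbers 1 to 15 hold the 12 and 26 month mice, 16 to 56 the 3, 15, 18 and 21 month mice and 57 to 59 the 28 month mice, so these ages and any difference between the blocks of numbers cannot be told apart. The profile of 14 libraries lay nearer to the mean of some other region than to that of their own, and 8 of these were labelled posterior hippocampus and lay nearest to the anterior pieces. Pieces labelled choroid plexus also held brain tissue: the summed level of 10 neuron markers there at 3 months was 6730, 8042 and 8598 CPM (lowest, median and highest; reads of a gene per 1000000 reads of its library), against 574 to 12274 CPM for 7 choroid plexus markers over all ages. Corpus callosum pieces held neuronal RNA too: the median level of the neuron markers was 8.61 in log2 CPM, against 8.36 in caudate putamen. The choroid plexus markers in corpus callosum ranged from -0.735 to 8.61 in log2 CPM, with a median of 3.86. Fewer cells of a type and less RNA per cell cannot be told apart in bulk tissue. Reads were unstranded, and 23.6% of the 50-base words in the exons of Grin3b also occur in the overlapping gene Tmem259, 8.24% of those of Grin1 in other genes, among them the overlapping Grin1os, and 11.6% of those of Grin2a in other genes, among them the pseudogene Gm7328. Genes on the opposite strand held 8.53% of those of Grm2 (Gm28111) and 7.57% of those of Grin2d (Gm45441), and other genes, among them A730060N03Rik, held 5.86% of those of Cacng2, so the levels of these 6 genes may hold reads of their partners. Grm6 had a read in 86 libraries and never more than 4, and passed the filter on low counts in no region. It is left out of all counts below except those of promoters.

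Promoters are shown for Neto2, the gene that fell with age in the most regions, for Cnih2, which fell in 4, and for Grin1, the obligatory NMDA receptor subunit. Each sequence is the 250 bases before the RefSeq transcription start in GRCm38.p6, written 5′ to 3′ on the strand of the gene. All 3 genes lie on the minus strand, at chr8:85700925-85701174 for Neto2, chr19:5098522-5098771 for Cnih2 and chr2:25319188-25319437 for Grin1. Capitals mark the GC box GGGCGG on either strand in Neto2 and Cnih2 and the E-box CACGTG in Grin1.
Neto2: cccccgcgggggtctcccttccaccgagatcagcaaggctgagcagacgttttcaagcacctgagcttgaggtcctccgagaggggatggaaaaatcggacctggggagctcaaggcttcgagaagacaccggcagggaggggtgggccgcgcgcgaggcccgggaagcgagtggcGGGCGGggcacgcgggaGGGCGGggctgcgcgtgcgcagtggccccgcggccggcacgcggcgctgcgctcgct
Cnih2: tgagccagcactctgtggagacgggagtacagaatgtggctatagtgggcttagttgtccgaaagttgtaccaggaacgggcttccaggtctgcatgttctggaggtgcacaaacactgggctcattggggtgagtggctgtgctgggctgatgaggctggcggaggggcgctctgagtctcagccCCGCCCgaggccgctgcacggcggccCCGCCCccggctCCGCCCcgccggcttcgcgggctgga
Grin1: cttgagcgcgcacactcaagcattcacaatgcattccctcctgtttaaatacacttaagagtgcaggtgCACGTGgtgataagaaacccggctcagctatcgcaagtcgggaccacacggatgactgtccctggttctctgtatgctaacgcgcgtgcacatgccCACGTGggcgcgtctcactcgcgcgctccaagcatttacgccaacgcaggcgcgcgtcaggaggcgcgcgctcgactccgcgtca
Neto2 has 2 GC boxes 57 and 74 bases before the start, Cnih2 has 3 between 26 and 64 bases before it, and Grin1 has 2 E-boxes 85 and 181 bases before it. RefSeq windows were matched for 23 of the 34 genes. A GC box was present in 13 of the 23 (56.5%) and in 8901 of 27025 promoters of the same length (32.9%). The members' windows had a median GC content of 62.8%, against 52.0% for all promoters. An E-box stood in 2 of the 23 (8.70%), those of Grin1 and Cnih3, against 6.05% of all promoters. The cAMP response element TGACGTCA was in 0 of the 23 windows, against 1.62% of all promoters.

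Most of the variance of these genes lay between regions. Region accounted for 58.1% (Grin1) to 96.3% (Grin2b) of the variance of log2(CPM + 1) over the 847 libraries in the 33 members other than Grm6, and age beside region for at most 0.964% (Neto2). In the heat map of levels per length, both hippocampal pieces had high Gria1, Gria2, Grin2a, Grin2b and Cnih2, and the cerebellum, olfactory bulb, thalamus and medulla each had members that were highest there. Across the 33 members, the region profiles of the hippocampal pieces correlated at r = 0.915, those of motor and visual cortex at 0.915, caudate putamen and corpus callosum at 0.912, and medulla and pons at 0.789. These correlations describe libraries from the same mice.

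**Figure D1:**
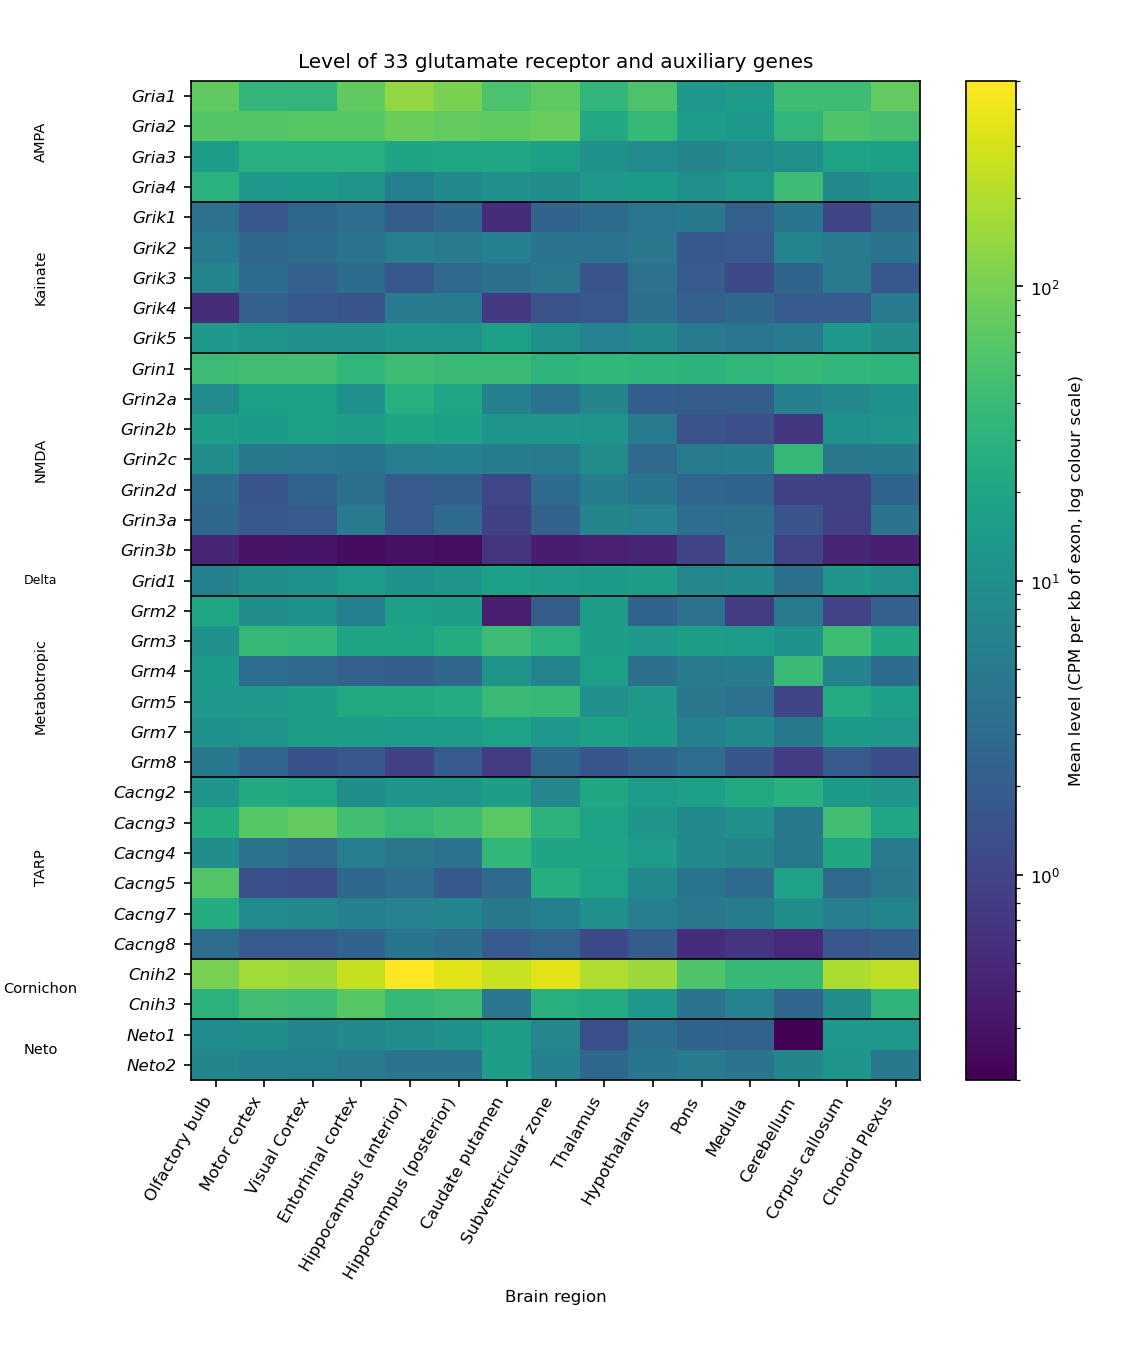
Mean level of 33 members (rows, by class) in 15 regions (columns) as CPM per kilobase of exon on a log colour scale, over 51 to 59 libraries per region. Cnih2 in anterior hippocampus, at 491 CPM per kb, is the brightest cell, and Neto1 in cerebellum, at 0.210 CPM per kb, is among the darkest.

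Of the AMPA receptor genes, Gria1 and Gria2 were highest in anterior hippocampus and Gria4 in cerebellum. Gria1 encodes the subunit that activity drives to synapses, and its level in anterior hippocampus was 603, 843 and 1058 CPM (lowest, median and highest of 57), against 32.8, 73.5 and 149.7 CPM in the 51 pons libraries. These ranges did not overlap, and the ratio of the means was 10.9. Gria2, whose edited subunit blocks calcium entry, ranged from 1329 ± 126 CPM in anterior hippocampus (SD, n = 57) to 199 ± 30.2 CPM in medulla (n = 58). Gria3 was highest in motor cortex, at 278 ± 15.9 CPM (n = 59). Gria4, a subunit with fast kinetics, had a level of 182, 266 and 309 CPM in cerebellum and 25.0, 36.8 and 55.2 CPM in anterior hippocampus, without overlap.

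Per length, the make-up of the AMPA receptor transcripts shifted accordingly. The length is that of all annotated exons merged, 6043 bases for Gria1 and 15548 for Gria2. Ranks of genes within a region therefore depend on it, here and for the GluN2 and kainate shares below. In CPM without length, Gria2 (mean 1329) lay above Gria1 (mean 843) in anterior hippocampus. Gria1 made up 55.7% ± 1.4 of the family's CPM per kb in anterior hippocampus (SD, n = 57) and 24.6% in visual cortex. Gria2 had its largest share in caudate putamen, at 46.6% ± 1.5, and its smallest in medulla, at 25.7%. The share of Gria4 was 32.2% ± 1.5 in cerebellum, 26.3% in medulla, 23.0% in pons and 2.4% ± 0.6 in anterior hippocampus.

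**Figure D2:**
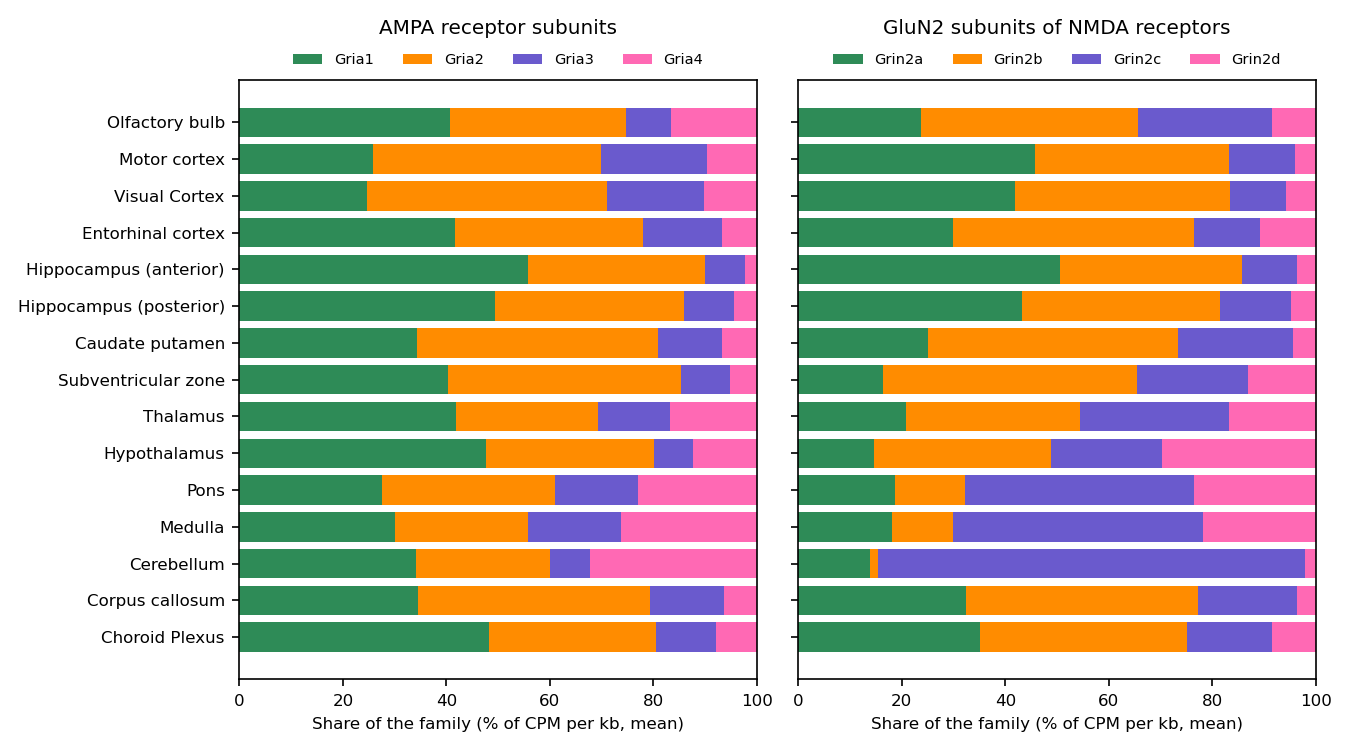
Share of each gene in the AMPA receptor family (Gria1 to Gria4) and in the GluN2 family (Grin2a to Grin2d), in % of the family's summed CPM per kb, as the mean over libraries in each of 15 regions. Grin2c fills 82.4% of the cerebellar GluN2 bar and 10.7% of that of anterior hippocampus.

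Among NMDA receptor genes, Grin1, which every NMDA receptor needs, varied least between regions and Grin2b most. Grin1 lay between 301 ± 48.4 CPM in pons (n = 51) and 453 ± 26.8 CPM in visual cortex (n = 56). Grin2b, a subunit of receptors with slow deactivation, had 341, 476 and 620 CPM in anterior hippocampus and 9.58, 16.7 and 48.8 CPM in cerebellum (n = 58), and the ratio of the means was 26.8. Grin2a was also highest in anterior hippocampus, at 496 ± 74.4 CPM, and lowest in pons, at 36.4 ± 5.40 CPM. Grin2c went the other way, with 99.0, 180 and 252 CPM in cerebellum, where its lowest library lay above the highest library of any other region (76.3 CPM, thalamus). Grin2c thus held 82.4% ± 2.4 of the GluN2 transcripts per length in cerebellum, where Grin2b held 1.7% ± 0.6. In hypothalamus, Grin2d had its largest share, 29.7% ± 3.1, and in anterior hippocampus Grin2a had 50.6% ± 2.3. The glycine-binding GluN3 genes were highest in thalamus (Grin3a, 87.6 ± 20.4 CPM, n = 59) and medulla (Grin3b, 13.0 ± 4.56 CPM, n = 58). Grin3b was 3.33 CPM in pons, the nearest region, and 0.851 CPM in entorhinal cortex.

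The kainate receptor genes were each highest in a region of their own. Grik2, which forms channels alone or with the other subunits, was highest in cerebellum (88.3 ± 11.9 CPM), Grik1 in pons (32.1 ± 8.60 CPM) and Grik3 in olfactory bulb (61.8 ± 4.59 CPM). Grik5, a high-affinity subunit that needs a partner, was highest in caudate putamen at 88.9 ± 11.1 CPM, where it made up 61.4% ± 2.6 of kainate receptor transcripts per length. Grik4, the other high-affinity subunit, was 31.3 ± 10.8 CPM in the choroid plexus pieces, 30.6 ± 10.3 in posterior hippocampus and 29.3 ± 8.49 in anterior hippocampus, differences smaller than the spread within each.

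Grid1, a delta receptor gene, ranged from 21.5 ± 4.05 CPM in cerebellum to 99.2 ± 8.63 CPM in caudate putamen. Metabotropic receptor genes differed in their extremes, also within a group. Grm5, of group I and coupled to phospholipase C, had 263, 404 and 482 CPM in caudate putamen and 0.992, 7.32 and 53.3 CPM in cerebellum. The group II receptors Grm2 and Grm3 had opposite extremes, since Grm2 was 102 ± 8.63 CPM in olfactory bulb and 1.88 ± 1.48 in caudate putamen, and Grm3 was 133 ± 11.5 CPM in corpus callosum and 31.8 ± 4.32 in olfactory bulb. Of the group III receptors, Grm4 had 141, 239 and 315 CPM in cerebellum, above every library of other regions (the highest being 129 CPM, thalamus). Grm7 was highest in caudate putamen, at 106 CPM, and Grm8 in olfactory bulb, at 47.5 CPM.

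Of all members, the auxiliary subunit Neto1 had the widest range between regions. It was 75.0, 134 and 179 CPM in caudate putamen and 0, 1.72 and 5.47 CPM in cerebellum, a ratio of means of 75.2. Neto2 was also highest in caudate putamen, at 97.2 ± 14.6 CPM, and lowest in thalamus, at 17.2 ± 3.26 CPM. The type II TARP Cacng5 had 203, 234 and 270 CPM in olfactory bulb, above every library of subventricular zone (at most 176 CPM) and of all other regions, and 5.04 ± 1.71 CPM in visual cortex. Cacng7, its close relative, was likewise above all other libraries in olfactory bulb (61.3 ± 5.28 CPM). Cacng2, which encodes stargazin, was highest in cerebellum (156 ± 12.2 CPM), Cacng3 in visual cortex (211 ± 16.7), Cacng4 in caudate putamen (128 ± 19.1) and Cacng8 in anterior hippocampus (9.82 ± 1.76). Cnih2 was 422, 670 and 1046 CPM in anterior hippocampus and 39.5, 50.9 and 75.7 CPM in cerebellum. Cnih3 was highest in entorhinal cortex, at 180 ± 40.4 CPM.

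Posterior and anterior hippocampus, dissected from the same 56 mice, differed in most members. In posterior hippocampus, 14 of 32 tested members were higher, where 27.3% of all tested genes were, and 11 were lower, where 29.8% were (edgeR quasi-likelihood test with age and sex in the fit, adjusted p under 0.05). The members' shares were 43.8% and 34.4%. With the mouse as a replicate block 13 were higher, since Cacng7 then had an adjusted p of 0.0505. Grm8, a presynaptic group III receptor, had 2.81, 9.34 and 16.9 CPM in anterior and 3.07, 19.8 and 33.3 CPM in posterior pieces, and was higher in posterior in 53 of 56 mice (log2 difference 0.96 ± 0.10 SE, adjusted p = 1.84e-14). The ranges overlapped. Grik3 went from 15.7 ± 3.62 to 25.9 ± 7.92 CPM (0.67 ± 0.07), Grin3a from 24.1 ± 5.74 to 37.7 ± 9.97 CPM (0.62 ± 0.06) and Gria4 from 36.7 ± 6.65 to 53.5 ± 17.8 CPM (0.52 ± 0.07). In the other direction, Cacng5 fell from 12.6 ± 5.38 CPM in anterior to 7.10 ± 2.62 CPM in posterior pieces (log2 difference -0.77 ± 0.09) and was lower in 48 of 56 mice. Grin2a, Gria1, Gria2, Grin2b and the AMPA receptor partner Cnih2 were also lower in posterior pieces, by log2 differences from -0.14 (Grin2b) to -0.49 (Grin2a). Other tissue moved with the comparison: all 5 cortex markers were higher and 8 of 8 oligodendrocyte markers lower in posterior pieces, with summed levels of 84.7, 109 and 169 CPM in anterior against 96.9, 190 and 283 CPM in posterior for the cortex list and 3472, 6721 and 16227 against 2715, 4682 and 10900 CPM for the oligodendrocyte list. Of 10 neuron markers 7 were higher and 2 lower (sums of 6203, 7316 and 8741 against 7278, 8309 and 9806 CPM), and of 5 hippocampus markers 4 were lower (452, 792 and 1106 against 371, 552 and 817 CPM). None of these 4 lists had a gene at a median of 0. Lower in posterior pieces were also 3 of 4 thalamus markers, with 1 higher, 5 of 7 choroid plexus markers, with sums of 11.2, 23.1 and 4442 against 7.5, 12.6 and 1355 CPM and 2 and 4 genes at a median of 0, and 4 of 4 ependyma markers, 3 of them at a median of 0. Of 4 cerebellum markers 3 were higher. The part of these lists in the member differences was not tested.

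Visual and motor cortex, again from 56 mice, differed in 30 of 33 members by smaller steps. In visual cortex 12 members (36.4%) were higher, where 35.7% of all tested genes were, and 18 (54.5%) were lower, where 31.8% were. Grm8 was lower in visual cortex in 54 of 56 mice, with 16.4, 24.7 and 34.0 CPM in motor and 7.25, 13.5 and 27.8 CPM in visual cortex (log2 difference -0.89 ± 0.05, adjusted p = 3.71e-31). Neto1 was lower in all 56 mice, at 56.4 ± 7.95 CPM in visual and 81.2 ± 6.49 CPM in motor cortex (-0.56 ± 0.03), and Grik3 was lower in 48 (-0.57 ± 0.06). Grik1 rose from 11.2 ± 1.79 CPM in motor to 18.3 ± 2.86 CPM in visual cortex and was higher in 55 of 56 mice (0.65 ± 0.04). Grin2d was higher in all 56 mice (10.2 ± 1.53 against 15.4 ± 2.49 CPM, 0.53 ± 0.04). Visual cortex pieces held less oligodendrocyte RNA: 8 of 8 markers were lower, with sums of 1310, 2218 and 4162 CPM against 2647, 4178 and 7405 CPM in motor cortex, none at a median of 0. Of 10 neuron markers 7 were lower and 1 higher (sums of 9397, 10488 and 11162 against 10897, 11591 and 12382 CPM). Astrocyte markers were higher in 5 of 8 (1 lower) and thalamus markers in 3 of 4 (1 lower). Striatum markers were lower in 4 of 5 (1 higher) and those of oligodendrocyte precursors in 4 of 7 (1 higher). Endothelium markers were lower in 3 of 5 and olfactory bulb markers in 3 of 4. The part of these lists in the member differences was not tested.

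**Figure D3:**
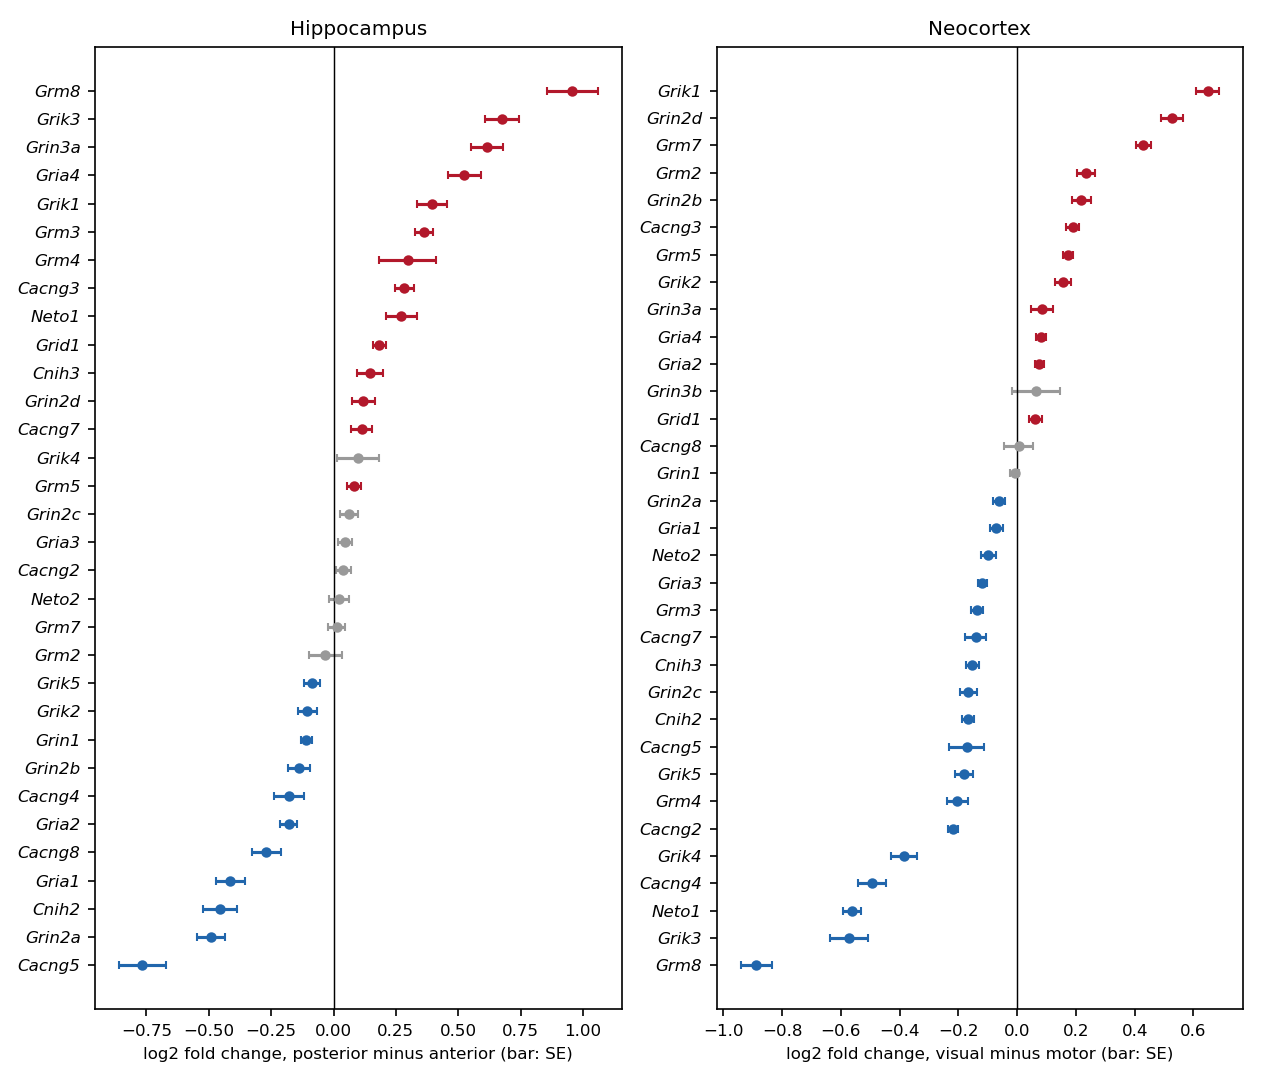
Log2 difference of each tested member between neighbouring dissections, posterior minus anterior hippocampus and visual minus motor cortex, with bars of 1 SE. Points with an adjusted p under 0.05 are red where higher and blue where lower, and all others are grey. Grm8 lies farthest right in the hippocampal panel (0.96) and farthest left in the cortical panel (-0.89).

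With age, the changes of these genes were small and mostly downward. The age slope was fitted in each region over all its libraries with sex in the fit, and is given in log2 units per month. Over 494 member and region pairs, 46 fell (9.31%) and 5 rose at an adjusted p under 0.05, where 5.1% of all gene and region pairs fell and 6.37% rose. The slope was below 0 in 337 of the 494 pairs, whether or not it passed the test. Of 33 members, 24 fell in at least 1 region (72.7%), 5 rose in at least 1 (15.2%) and 3 did both (9.09%). Over the 13306 genes tested, like these members, in at least 14 regions, 35.5% fell in at least 1, 31.8% rose in at least 1 and 4.13% did both. The 7 members with no called slope in any region were Grin2c, Grin3a, Grin3b, Grik1, Grik4, Grm2 and Cacng7. Of the 51 called pairs, 31 stayed past the threshold when each of 14 mice was left out in turn, and 5 also did so in all 17 other ways of processing tried: Neto2 in visual and in motor cortex, Cnih2 in corpus callosum, Gria2 in motor cortex and Grin1 in olfactory bulb. In males alone 22 pairs fell, and in mice 16 to 56, which lack the 12, 26 and 28 month mice, 23 did. The count of 5 rising pairs became 10 without mouse 2, 9 without mouse 37 and 8 without mouse 38 or 57.

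By class, the Neto genes fell in the largest share of their pairs, 7 of 30 (23.3%), and the cornichon genes in 5 of 30 (16.7%). Each of these classes holds 2 genes. Neto2 made up 6 of the 7 falls and Cnih2 made up 4 of the 5. Over all gene and region pairs the share falling was 5.1%. AMPA receptor genes fell in 7 of 60 pairs (11.7%) and rose in 1, and TARPs fell in 10 of 90 (11.1%) and rose in 1. The share was 5.77% for NMDA receptor genes (6 of 104, with 2 rising), 5.33% for kainate receptor genes (4 of 75, with 1 rising), 6.67% for metabotropic receptor genes (6 of 90) and 6.67% for Grid1 (1 of 15). The median slope over tested pairs was -0.0066 log2 per month for the Neto genes, -0.0043 for NMDA, -0.0039 for AMPA, -0.0036 for metabotropic and -0.0020 for kainate receptor genes. The classes were not tested against each other.

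**Figure D4:**
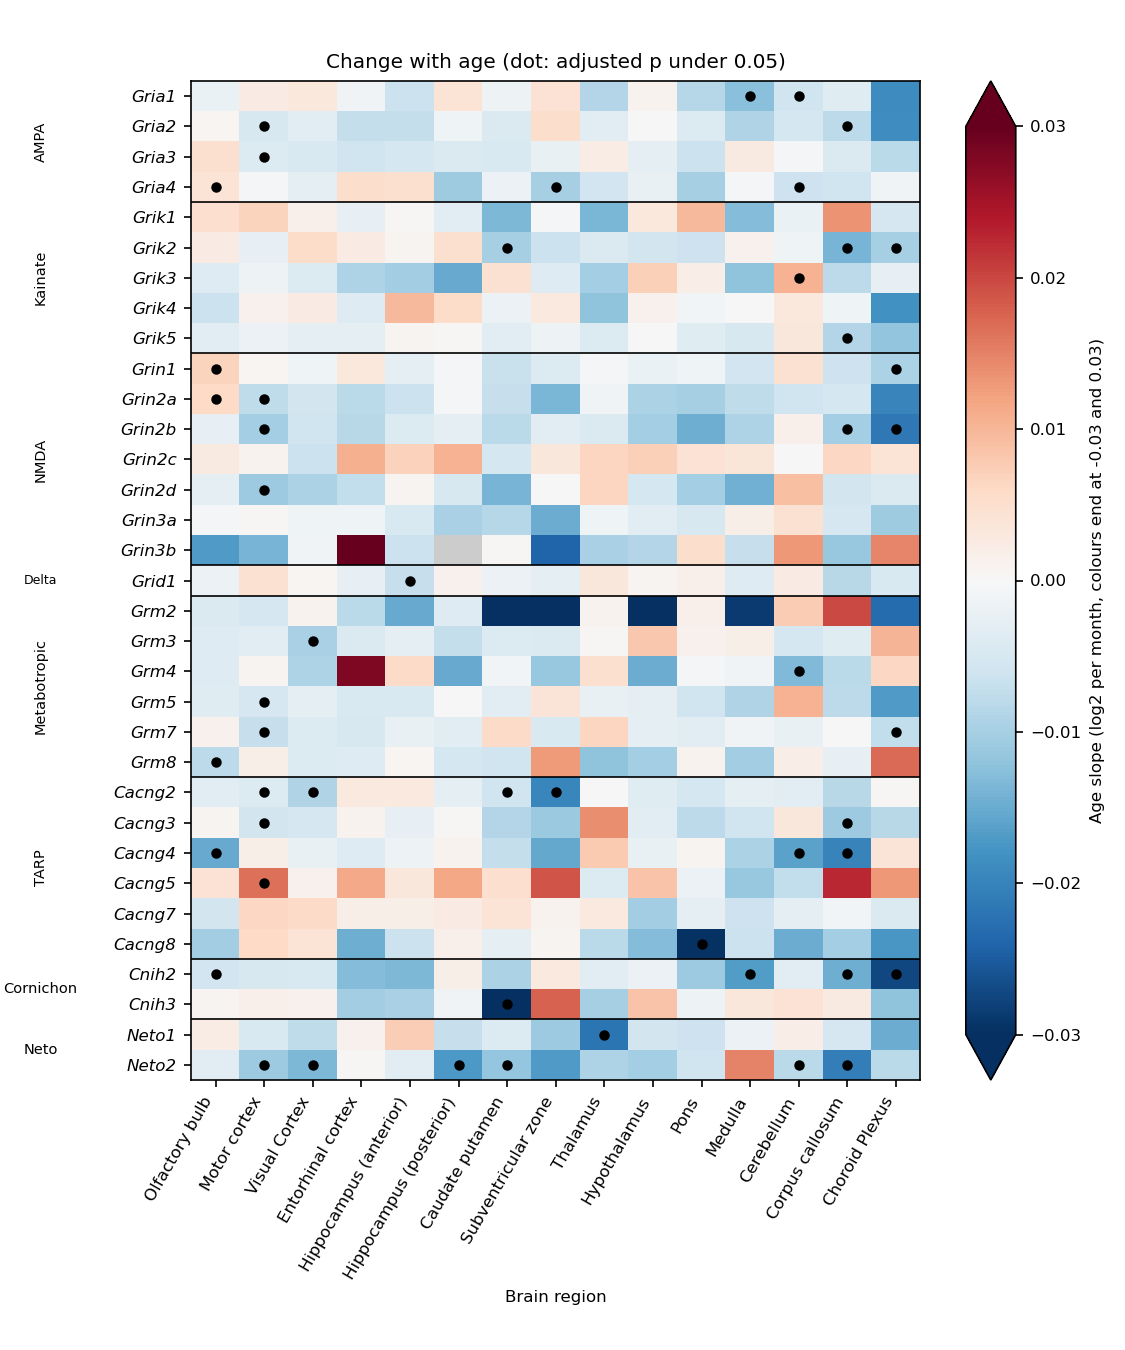
Age slope of each member in each region, in log2 per month, with blue for falling and red for rising levels and a dot where the adjusted p was under 0.05. Of 494 tested cells, 46 falling and 5 rising ones carry a dot, and motor cortex and corpus callosum hold the most.

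The falls were unevenly spread over regions. So were those of all genes, from 0.0413% in entorhinal cortex to 9.28% in the choroid plexus pieces, and unevenness beyond that was not tested. In motor cortex 10 members fell and 1 rose, where 8.89% of all tested genes fell and 8.39% rose. In corpus callosum 8 fell (background 8.95%), in cerebellum 5 fell and 1 rose (8.41% and 10.5%), in the choroid plexus pieces 5 fell (9.28%), in caudate putamen 4 (6.26%) and in visual cortex 3 (4.94%). Olfactory bulb had 3 falling and 3 rising members, where 9.01% of all genes fell and 7.78% rose. There were 2 falling members in medulla (4.21%) and 2 in subventricular zone (3.67%), and 1 each in anterior hippocampus (4.52%), posterior hippocampus (2.29%), thalamus (2.01%) and pons (1.07%). No member passed the edgeR slope test in entorhinal cortex, where 0.0413% of genes fell, or in hypothalamus, where 3.21% fell. In entorhinal cortex 2 of 33 members and 1423 of 14519 tested genes had an unadjusted p under 0.05. In hypothalamus 8 of 33 members and 3216 of 14726 tested genes did. In edgeR tests against 3 months, Grin2a was lower in hypothalamus at 21 and 28 months (log2 difference -0.24 and -0.42, adjusted p = 0.0379 and 0.0343). Grm4 was higher in entorhinal cortex at 26 months (2.10, adjusted p = 0.0138). Of the tested members, 10 of 33 in motor cortex and 8 of 33 in corpus callosum are shares of 30.3% and 24.2%. The shares were 15.2% in cerebellum and the choroid plexus pieces, 12.1% in caudate putamen and 9.09% in visual cortex and olfactory bulb. They were 6.06% in medulla and subventricular zone, 3.13% in posterior hippocampus and 3.03% in anterior hippocampus, thalamus and pons.

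Neto2 fell in 6 regions, more than any other member. In visual cortex it had 37.1, 41.7 and 47.2 CPM at 3 months (lowest, median and highest of 10 mice) and 27.1, 35.1 and 44.7 CPM at 21 to 28 months (18 mice), and 17 of the 18 old mice lay below the young median. The slope was -0.0134 ± 0.0026 log2 per month (SE, adjusted p = 0.000242), and the mean at 21 to 28 months was 19.2% lower than at 3 months. Median Neto2 there ran 41.7, 36.8, 34.5, 36.4, 36.2, 31.4 and 27.7 CPM over the 7 ages. In motor cortex it had 36.3, 41.5 and 46.3 CPM at 3 months and 30.0, 36.7 and 42.0 CPM at 21 to 28 months, lower in 18 of 19 old mice (slope -0.0109 ± 0.0024, adjusted p = 0.000682). The 10 neuron markers summed to a median of 10225 CPM at 3 months and 10538 at 21 to 28 months in visual cortex, and 11515 and 11664 CPM in motor cortex. In corpus callosum Neto2 had 70.4, 87.7 and 110 CPM at 3 months and 37.4, 68.3 and 90.8 CPM at 21 to 28 months (slope -0.0207 ± 0.0054, adjusted p = 0.00412). The groups overlapped, with 16 of 18 old mice below the young median. In corpus callosum 6 of 8 astrocyte markers rose with age (sums of 1742, 1835 and 1959 CPM at 3 months and 1982, 2475 and 3329 CPM at 21 to 28 months), as did 5 of 6 microglia markers (370, 424 and 462 against 453, 522 and 739 CPM) and 3 of 8 oligodendrocyte markers (17729, 21739 and 24390 against 18942, 22934 and 30382 CPM), none at a median of 0. With the oligodendrocyte markers in the fit the slope of Neto2 there was -0.0204 (adjusted p = 0.0090). Of the 5 markers of striatum, whose tissue lies beside the corpus callosum, 0 passed the test (2432, 3464 and 4595 against 1010, 3071 and 4164 CPM), and with their mean level in the fit the slope was -0.0144 (adjusted p = 1.03e-05).

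Neto2 also fell in posterior hippocampus (slope -0.0172 ± 0.0043, adjusted p = 0.00632; 16 of 18 old mice below the young median), cerebellum (-0.0080 ± 0.0022, adjusted p = 0.00704; 18 of 19) and caudate putamen (-0.0117 ± 0.0038, adjusted p = 0.0291; 19 of 19). The caudate call ended without mouse 37, 57 or 59, with an adjusted p of at most 0.0564. With the oligodendrocyte markers in the fit the caudate slope was -0.0068 (adjusted p = 0.112), where 0 of 8 of these markers passed the test with age and their sums were 5481, 10970 and 20956 CPM at 3 months and 8668, 15288 and 28439 CPM at 21 to 28 months. Neto1 fell in thalamus, where it is low, from 9.36, 12.4 and 28.4 CPM at 3 months to 6.91, 9.56 and 13.1 CPM at 21 to 28 months (-0.0220 ± 0.0052, adjusted p = 0.00497). The 28.4 CPM belong to mouse 17, and the call remained without it.

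Cnih2, the cornichon abundant in forebrain, fell in 4 regions. In corpus callosum it had 252, 301 and 347 CPM at 3 months and 182, 239 and 308 CPM at 21 to 28 months, and 17 of 18 old mice lay below the young median. The slope was -0.0147 ± 0.0025 log2 per month (adjusted p = 9.66e-06), with medians of 301, 282, 276, 267, 244, 226 and 235 CPM over the 7 ages. In olfactory bulb it fell by less, from a median of 150 to 135 CPM (-0.0058 ± 0.0015, adjusted p = 0.00553). In the choroid plexus pieces it had 161, 425 and 545 CPM at 3 months and 118, 257 and 450 CPM later (-0.0274 ± 0.0084, adjusted p = 0.0163), and there the slope was -0.0011 (adjusted p = 0.923) with the neuron markers in the fit. In medulla the adjusted p was 0.0340 and rose to at most 0.0900 without mouse 17, 37, 57, 58 or 59. Cnih3 fell in caudate putamen, where 3 libraries stood apart: 7.21, 11.8 and 64.4 CPM at 3 months and 3.26, 6.64 and 35.8 CPM later (-0.0524 ± 0.0157, adjusted p = 0.0166). Without these 3 libraries the slope was -0.0424 (adjusted p = 0.0410), and with the neuron markers in the fit it was -0.0056 (adjusted p = 0.726).

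**Figure D5:**
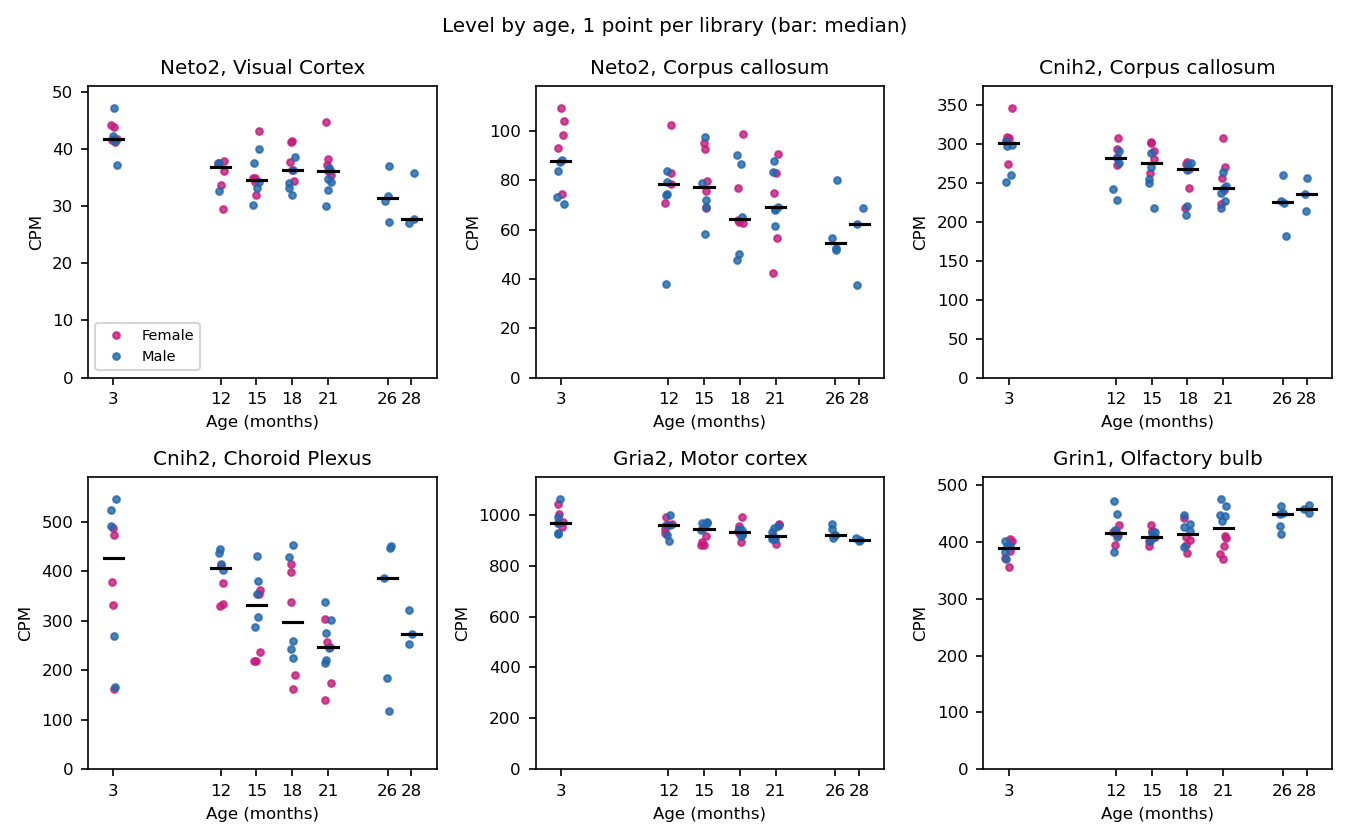
CPM of single libraries by age in months for Neto2 in visual cortex and corpus callosum, Cnih2 in corpus callosum and choroid plexus, Gria2 in motor cortex and Grin1 in olfactory bulb, with a bar at the median of each age. Medians of Neto2 in visual cortex go from 41.7 to 27.7 CPM, and those of Grin1 in olfactory bulb from 389 to 459 CPM.

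Of the TARPs, Cacng2 fell in 4 regions, Cacng4 in 3 and Cacng3 in 2. Cacng2 in visual cortex had 107, 125 and 133 CPM at 3 months and 91.4, 113 and 126 CPM at 21 to 28 months (-0.0090 ± 0.0022, adjusted p = 0.00438). Its calls in caudate putamen, motor cortex and subventricular zone lay at adjusted p values of 0.0478, 0.0486 and 0.0428, and each ended without at least 3 of the single mice left out (57 and 58 among them in all 3 regions), with an adjusted p of at most 0.107. They also ended with the neuron or the oligodendrocyte markers in the fit (adjusted p from 0.0537 to 0.107). Cacng4 fell in cerebellum (15.6, 19.2 and 24.7 CPM against 12.7, 16.0 and 23.2 CPM; -0.0160 ± 0.0041, adjusted p = 0.00328), in olfactory bulb (-0.0151 ± 0.0046, adjusted p = 0.0168) and in corpus callosum. In corpus callosum its level went from 68.7, 88.7 and 121 CPM to 32.7, 67.7 and 94.7 CPM (-0.020 ± 0.0070, adjusted p = 0.0364, and at most 0.0776 without mouse 57 or 59). The adjusted p there was 0.0631 with the oligodendrocyte markers in the fit, and the slope was -0.0110 with the striatum markers (adjusted p = 0.0173). Cacng3 in corpus callosum and motor cortex had adjusted p values of 0.0464 and 0.0480, and both calls ended without any of several mice (37, 57, 58 and 59 in both regions), with an adjusted p of at most 0.130. With the oligodendrocyte markers in the fit they had adjusted p values of 0.122 and 0.0591, in corpus callosum 0.0757 with the striatum markers, and in motor cortex 0.0949 with the neuron markers. Cacng5 rose in motor cortex, where it is near its lowest level, from 3.00, 4.71 and 5.95 CPM to 3.33, 5.64 and 7.74 CPM (0.0165 ± 0.0048, adjusted p = 0.0117). Cacng8 fell in pons at about 1 CPM (adjusted p = 0.0288, and 0.0812 without mouse 17).

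Among the AMPA receptor genes, Gria2 fell by a few percent in motor cortex. It had 925, 969 and 1062 CPM at 3 months and 887, 916 and 965 CPM at 21 to 28 months, and all 19 old mice lay below the young median. The slope was -0.0048 ± 0.00094 log2 per month (adjusted p = 0.00017), a mean change of -5.76%. Gria1 fell in medulla, from 85.8, 95.0 and 109 CPM to 65.6, 84.0 and 94.8 CPM, with 19 of 19 old mice below the young median (-0.0125 ± 0.0037, adjusted p = 0.0182). Gria4 fell in cerebellum, its main region (246, 283 and 305 against 220, 260 and 302 CPM; -0.0061 ± 0.0018, adjusted p = 0.0132), and in subventricular zone (53.7, 61.8 and 71.1 against 38.3, 56.5 and 66.7 CPM; -0.0099 ± 0.0029, adjusted p = 0.0206). With the neuron markers in the fit these slopes were -0.0041 in cerebellum (adjusted p = 0.108), where 3 of the 10 markers fell with age (sums of 7919, 8034 and 8411 against 7271, 7810 and 8139 CPM), and -0.0058 in subventricular zone (0.109), where 1 fell (5563, 5962 and 6544 against 4810, 5642 and 6198 CPM). With the oligodendrocyte markers the slope in subventricular zone was -0.0069 (adjusted p = 0.0541). In olfactory bulb Gria4 rose from a median of 174 to 190 CPM (adjusted p = 0.0430), a call that ended without mouse 17, 37 or 57 (at most 0.0732) and with the neuron, striatum, cortex or choroid plexus markers in the fit (0.0554 to 0.0979). The remaining calls were falls of Gria1 in cerebellum (adjusted p = 0.0382, lost without mouse 16 or 58, and 0.0803 with the neuron and 0.0669 with the striatum markers in the fit), Gria2 in corpus callosum (0.0292, lost without mouse 37, 57 or 58, and 0.0845 with the oligodendrocyte markers) and Gria3 in motor cortex (0.0454, lost without mouse 2, 37, 38, 57, 58 or 59, and 0.0866 with the neuron markers).

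By the slope test, Grin1 and Grin2a of the NMDA receptor genes each rose in 1 region and fell in 1 other. Grin2b and Grin2d were called as falling alone, and Grin2c, Grin3a and Grin3b had no called slope. In the choroid plexus pieces Grin3a was lower at 21 than at 3 months (log2 difference -0.36, edgeR adjusted p = 0.0328). Grin1 rose in olfactory bulb from 357, 389 and 406 CPM at 3 months to 370, 447 and 476 CPM at 21 to 28 months, above the young median in 16 of 18 old mice (0.0066 ± 0.0014, adjusted p = 0.000573). Its medians over the 7 ages were 389, 417, 409, 414, 424, 449 and 459 CPM. The neuron markers summed to a median of 7672 CPM at 3 months and 8144 CPM at 21 to 28 months there, with 3 of 10 rising and 2 falling, and with their mean in the fit the call remained. In the choroid plexus pieces Grin1 fell from 296, 340 and 399 CPM to 255, 305 and 351 CPM (-0.0094 ± 0.0021, adjusted p = 0.000802). Grin2a rose in olfactory bulb (119, 147 and 163 against 139, 159 and 176 CPM; 0.0060 ± 0.0019, adjusted p = 0.0234) and fell in motor cortex (276, 321 and 344 against 239, 303 and 344 CPM; -0.0077 ± 0.0019, adjusted p = 0.00313), and a difference of its slopes between regions did not pass the joint test of all regions (adjusted p = 0.256). Grin2b fell in motor cortex from 326, 378 and 407 CPM to 268, 335 and 397 CPM (-0.0101 ± 0.0026, adjusted p = 0.00325). It also passed the test in corpus callosum (adjusted p = 0.0169, 0.0501 without mouse 37, and 0.0510 with the oligodendrocyte markers in the fit) and in the choroid plexus pieces (0.0251, and 0.0517 without mouse 17). Grin2d fell in motor cortex (adjusted p = 0.0258, and 0.126 without mouse 17).

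Of the kainate receptor genes, Grik2 fell in caudate putamen from 73.7, 85.8 and 94.3 CPM to 64.6, 71.7 and 94.2 CPM (-0.0099 ± 0.0028, adjusted p = 0.0106) and in the choroid plexus pieces (-0.0101 ± 0.0029, adjusted p = 0.00927). Grik2 and Grik5 also fell in corpus callosum, and both calls ended without mouse 57 (adjusted p of 0.0171 and 0.0152, and 0.0561 and 0.0547 without it). With the oligodendrocyte markers in the fit Grik2 there had an adjusted p of 0.0581, and with the striatum markers a slope of -0.0090 against -0.0140 (adjusted p = 0.00347). Grik3 rose in cerebellum from 16.2, 20.3 and 26.5 CPM to 18.1, 25.5 and 31.3 CPM (0.0105 ± 0.0036, adjusted p = 0.0302, 0.0620 without mouse 59, and 0.0551 with the striatum markers in the fit). Grid1 fell in anterior hippocampus from 58.6, 71.9 and 79.4 CPM to 47.9, 65.4 and 72.2 CPM (-0.0070 ± 0.0022, adjusted p = 0.0307, and 0.0609 without the library nearest to choroid plexus). In anterior hippocampus 5 of 6 tested choroid plexus markers rose with age (sums of 11.2, 20.7 and 38.3 CPM at 3 months, with 2 of 7 genes at a median of 0, and 14.5, 25.5 and 4442 CPM at 21 to 28 months), as did 4 of 4 ependyma and 4 of 8 oligodendrocyte markers (3747, 6154 and 8030 against 3477, 7189 and 16227 CPM). The slope of Grid1 was -0.0051 with the choroid plexus markers in the fit (adjusted p = 0.138), -0.0051 with the oligodendrocyte (0.149) and -0.0065 with the striatum markers (0.0763).

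In the slope test the metabotropic receptor genes had 6 falls and no rise. Grm4 fell in cerebellum, the region of its highest level, from 217, 264 and 315 CPM to 174, 219 and 310 CPM (-0.0132 ± 0.0034, adjusted p = 0.00312). Grm3 fell in visual cortex from 102, 117 and 142 CPM to 80.4, 102 and 121 CPM (-0.0097 ± 0.0024, adjusted p = 0.00464). Grm8 fell in olfactory bulb, also its region of highest level, from 47.9, 51.9 and 55.1 CPM to 39.0, 45.4 and 53.9 CPM (-0.0078 ± 0.0022, adjusted p = 0.00843). Grm7 fell in motor cortex (-0.0069 ± 0.0020) and in the choroid plexus pieces (-0.0075 ± 0.0018), and Grm5 in motor cortex (adjusted p = 0.0264, and at most 0.0589 without mouse 37 or 58).

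In the choroid plexus pieces, markers of other cells moved with the falls of Cnih2, Grin2b, Grik2, Grin1 and Grm7. Of 10 neuron markers 4 fell with age, and their sum went from 6730, 8042 and 8598 CPM at 3 months to 6245, 7477 and 8469 CPM at 21 to 28 months. Of 8 oligodendrocyte markers 4 rose, and their sum went from 5169, 10027 and 25548 CPM to 8119, 17844 and 27396 CPM. None of these markers had a median of 0. With the neuron markers in the fit 0 of the 5 calls remained: the slope of Grm7 was -0.0053 against -0.0075 without them (adjusted p = 0.0600), that of Grin1 -0.0043 against -0.0094 (0.0611), that of Grik2 -0.0040 against -0.0101 (0.323), that of Cnih2 -0.0011 against -0.0274 (0.923), and that of Grin2b changed sign (0.989). With the oligodendrocyte markers Grin1 (-0.0052, adjusted p = 0.0404) and Grm7 (-0.0054, 0.0445) passed the test, and Grik2 (0.319), Cnih2 (0.909) and Grin2b (0.931) did not. Grin2b also missed it with the choroid plexus markers (0.0655), and Grik2, Cnih2 and Grin2b with the cortex markers (0.0598, 0.195 and 0.234).

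Set against the 3 month mice age by age, members were lower in 5 pairs at 12 months (0.927% of all gene and region pairs were). The count was 5 at 15 (0.551%), 8 at 18 (1.11%), 30 at 21 (3.01%), 15 at 26 (1.57%) and 18 at 28 months (2.65%), each out of 494 pairs. All these contrasts share the 3 month libraries. They were higher in 17 combinations over the 6 ages, where 2.29% of all combinations were. The choroid plexus pieces at 21 months held 13 of the lower pairs (11.3% of genes were lower there), with log2 differences from -0.14 (Grm7) to -0.68 (Cnih2), among them Grin2a at -0.63, Grin2b at -0.61 and Gria1 at -0.54. In the same contrast 5 of 10 neuron markers were lower and 2 of 8 oligodendrocyte markers higher. In visual cortex at 26 months 6 members were lower (2.56% of genes were): Neto2 (-0.35), Grm3 (-0.33), Cacng2 (-0.27), Grin2a (-0.27), Gria2 (-0.20) and Gria3 (-0.19). In motor cortex at 28 months 6 were lower (5.98% of genes were), namely Grin2b (-0.48), Neto2 (-0.39), Grin2a (-0.38), Grm5 (-0.18), Cacng2 (-0.17) and Gria2 (-0.13), and Cacng5 was higher (0.49). The 28 month group holds 3 males, and the count of 18 became 8 without mouse 57, 12 without mouse 58 and 11 without mouse 59. At 15 months the count of 5 became 2 without mouse 18, and at 18 months the count of 8 became 13 without mouse 39.

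In a joint fit of all regions, the age slope differed between regions for 7 of 33 members, a share close to the 22.8% of all tested genes. They were Grm2 (adjusted p = 0.00276), Neto2 (0.00623), Cnih2 (0.0076), Grik2 (0.0149), Grin3b (0.0154), Grin1 (0.0219) and Cacng4 (0.0239). Slopes of Neto2 ran from -0.021 in corpus callosum to 0.015 in medulla, those of Cnih2 from -0.027 in the choroid plexus pieces to 0.0030 in subventricular zone and those of Grin1 from -0.0094 in the choroid plexus pieces to 0.0066 in olfactory bulb. Grm2 had slopes from -0.052 in hypothalamus to 0.020 in corpus callosum and passed the slope test in no single region. Leaving out each of 3 mice, mouse 58 gave 5 such members, mouse 57 gave 6 and mouse 59 gave 8.

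Ratios of subunits within a library shifted in 3 of 60 ratio and region pairs. In motor cortex the log2 ratio of Gria1 to Gria2, on log2(CPM + 1), was -2.21 ± 0.11 at 3 months (SD, n = 10) and -2.08 ± 0.10 at 21 to 28 months (n = 19), a slope of 0.0072 ± 0.0017 per month (2-sided permutation test of ages among mice within sex, p = 5e-05, adjusted p = 0.0027 over the 60). In olfactory bulb the log2 ratio of Grin2a to Grin2b went from -1.39 ± 0.10 (n = 10) to -1.23 ± 0.11 (n = 18), a slope of 0.0083 ± 0.0019 (permutation p = 9e-05, adjusted p = 0.0027). In subventricular zone the log2 ratio of Gria4 to Gria2 went from -4.24 ± 0.29 (n = 10) to -4.52 ± 0.18 (n = 17), a slope of -0.016 ± 0.0043 (permutation p = 0.00055, adjusted p = 0.011). In males alone the first of these shifts had an adjusted p of 0.0765, and in mice 16 to 56 the other two had adjusted p values of 0.0630 and 0.224. The groups overlapped in each case, and no ratio of Grin3a to Grin1 passed the test.

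Other genes of the glutamatergic synapse also fell more often than they rose. Of 300 pairs of 20 postsynaptic scaffold genes and regions, 33 fell and 4 rose, with Dlg4, the scaffold PSD-95, falling in 6 regions and Dlg2, Homer1 and Shank2 in 3 each. Of 149 pairs of 10 other AMPA receptor partners, 15 fell and 1 rose, with Frrs1l, needed for AMPA receptor assembly, falling in 4. Among 12 synaptic organisers, 32 of 179 pairs fell and 2 rose, with the postsynaptic adhesion genes Lrrtm1 and Nlgn3 falling in 7 regions each. Genes of glutamate uptake and metabolism fell in 9 and rose in 6 of 105 pairs, and the glial transporter Slc1a3 fell in 3 regions and rose in 2. Vesicular transporters fell in 5 of 42 pairs, Slc17a6 in 3 and Slc17a7 in 2. The shares falling were 11.0%, 10.1%, 17.9%, 8.57% and 11.9% for these 5 lists, beside 9.31% for the members and 5.1% for all genes. Of 150 pairs of 10 neuron markers, 20 fell (13.3%, a larger share than that of the members) and 4 rose. Of 105 pairs of 7 markers of oligodendrocyte precursors, 22 fell (21.0%) and 2 rose. Of 120 pairs of 8 astrocyte markers, 23 rose and 5 fell, and of 90 pairs of 6 microglia markers, 53 rose and 2 fell.

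Males and females differed in few members outside medulla. Over the ages that both sexes have, 3 to 21 months, 7 of 492 pairs were higher in males (1.38% of all gene and region pairs were) and 7 were lower (1.63%). At 3, 15, 18 and 21 months all males have mouse numbers from 16 to 36 and all females from 37 to 56, so at these ages sex and any difference between the blocks of numbers cannot be told apart. At 12 months the numbers of the sexes are interleaved, and in these 10 mice alone 0 pairs were higher and 1 was lower in males. Medulla held 8 of the 14, that is 8 of its 33 tested members, where 24.6% of all tested genes differed between the sexes. Grin3a there was 25.8 to 71.7 CPM in females, with a mean of 50.3 ± 11.4 (SD, n = 24), and 24.6 to 50.2 CPM in males, with a mean of 38.5 ± 6.64 (n = 26; log2 male minus female -0.38 ± 0.08 SE, adjusted p = 0.000391). Neto2 was 29.1 ± 14.9 CPM in females and 19.6 ± 4.44 in males (-0.54 ± 0.15, adjusted p = 0.00587), and Cnih2 48.2 ± 10.8 and 58.1 ± 10.3 CPM (0.29 ± 0.08, adjusted p = 0.00579). The ranges of the sexes overlapped in all 3. Neto1, Gria4 and Grik2 were also lower and Grin2d and Grid1 higher in male medulla. Thalamus markers summed to 92.6, 164 and 275 CPM in female and 155, 200 and 270 CPM in male medulla, with 1 of 4 higher, and cerebellum markers to 31.3, 81.8 and 392 against 35.8, 80.7 and 215 CPM, with 2 of 5 lower and none of either list at a median of 0. Their part was not tested. The age slope differed between the sexes in no member by edgeR and in none by DESeq2 (0.0694% of all gene and region pairs passed in edgeR). An unadjusted edgeR p under 0.05 was found in 14 of 492 member pairs and in 13691 of 211769 pairs of all genes.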

How the data were processed

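The deposited table holds whole-number read counts per gene symbol for 847 libraries. Tissue was homogenised for RNeasy extraction, followed by Smart-Seq2 cDNA and unstranded Nextera XT libraries, per the labels' protocols. The submitters' processing notes name Trim Galore 0.3.7, STAR 2.5.3a, DESeq2 and GRCm38, and the counting program and annotation are not given in the sources used here. Region, sex, age and mouse came from the labels, and no 2 columns were identical. CPM divides a count by its library total, and levels per kb use the merged exons of GENCODE vM21. Intervals between libraries come from the spread between mice, since the reads carry no molecular identifiers.

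Models were fitted with edgeR 4.0.16 in R 4.3.3 (quasi-likelihood F test, TMM factors, filterByExpr on age and sex groups), with Benjamini-Hochberg adjustment over all genes of a region and a threshold of 0.05. Ratios used log2 of CPM plus 1 where both genes had a median of at least 1 CPM, with 100000 permutations of ages among mice within sex. Alternatives were DESeq2 1.42.0, RLE factors, no filter, subsets of mice, covariates, single mice left out in turn (14 for most results, 10 for the sexes, 3 for the joint fit of regions and 59 for the ratios), and 10000 permutations for the ratios. Among these, the choroid plexus, striatum and cortex marker covariates, legacy dispersions, and the sets without the 12 month mice, without libraries nearest to another region and without those that stand apart were added after the data were seen. The age slope fit, on counts simulated from the cerebellum libraries, and the ratio test were tested on simulated data. Other steps used Python 3.11.15, numpy 2.4.6, pandas 2.3.3, scipy 1.17.1 and matplotlib 3.10.9.

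All 34 members were looked up, and Grm6 enters the promoter counts alone. Values by age were planned for the 10 members called in the most regions and for the 3 largest called slopes in each region. They were also planned for the 5 members of smallest adjusted p in the age by region test. Some of these, such as Grm2 and Grin3b, have only slopes or an adjusted p here. Values or log2 differences by region are given for the 5 of largest difference in each comparison of neighbouring regions. Of each list, up to 4 genes called in the most regions are named, except 1 that is not reported here. Further called members are named by their adjusted p alone or with their values, and those were chosen after their values were seen. The members and lists were chosen with earlier results of these data known. Same-numbered libraries of 2 regions come from the same mouse per the labels. Over 11005 genes their deviations from the group means had a median correlation of 0.084 between the hippocampal pieces and 0.052 between the cortical areas, against -0.002 and -0.001 for different mice.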

Additional observations from a re-analysis of the deposited data

Results flagged for a closer look

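In 151 groups of 4 to 10 libraries of 1 region and age, for members named in the text, 15 libraries lay far from the rest of their group, where chance puts about 1 in 20 groups past the same limit. Of these, 3 concern Cnih3 in caudate putamen: 64.4 CPM in mouse 29 at 3 months (the others 7.21 to 21.1), 13.1 CPM in mouse 22 at 15 months (4.70 to 8.21) and 35.8 CPM in mouse 2 at 26 months (4.51 to 6.00). The 5 cortex markers summed to 111 CPM in the first of these libraries, the highest of 58, to 50.0 CPM in the next and to 95.9 CPM in the last, against 29.1, 38.4 and 85.8 CPM (lowest, median and highest) in the other 55.

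Neto2 in corpus callosum was 38.0 CPM in mouse 15 at 12 months (the others 70.8 to 103) and 80.2 CPM in mouse 14 at 26 months (51.7 to 56.5). The library of mouse 15 lay nearest to motor cortex by its whole profile, and its striatum markers summed to 676 CPM, the lowest of the region, where the others apart from mouse 14 had 1010 to 4698 CPM. Mouse 14 had 4163 CPM. Neto2 was 31.4 CPM in posterior hippocampus of mouse 28 at 21 months (17.9 to 23.4) and 30.0 CPM in motor cortex of mouse 3 at 12 months (37.6 to 43.8).

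Gria1 was 51.6 CPM in medulla of mouse 19 at 18 months, below 81.7 to 99.1 CPM in the others, with a neuron marker sum of 10458 CPM inside the range of the rest. Grik3 was 26.5 CPM in cerebellum of mouse 37 at 3 months (16.2 to 21.7). Grin2d in motor cortex was 6.62 CPM in mouse 4 at 12 months (8.98 to 11.5) and 14.1 CPM in mouse 26 at 15 months (9.38 to 11.8). Grm8 was 33.3 CPM in olfactory bulb of mouse 43 at 18 months (43.5 to 51.4). Cacng2 was 27.2 CPM in subventricular zone of mouse 11 at 26 months (36.5 to 38.3) and 83.0 CPM in visual cortex of mouse 3 at 12 months (111 to 124). Neto1 was 28.4 CPM in thalamus of mouse 17 at 3 months (9.36 to 16.5).

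By the joint test over all regions, age slopes differed between regions for 7 of 33 members, a share close to the 22.8% of all tested genes. The 7 were Grm2 (adjusted p = 0.00276), Neto2 (0.00623), Cnih2 (0.0076), Grik2 (0.0149), Grin3b (0.0154), Grin1 (0.0219) and Cacng4 (0.0239). By the slope test of single regions, Neto2 and Cnih2 fell in 6 and 4, Grin1 rose in 1 and fell in 1, and Grm2 and Grin3b were called in 0.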

How the results depend on the processing

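The 46 falling pairs became 22 in males alone and 23 in mice 16 to 56, and stayed within 1.5 times otherwise. The 5 rising pairs became 9 with DESeq2, 3 in males alone, 3 with depth covariates, 12 with the neuron, 9 with the oligodendrocyte and 9 with the cortex covariate, and 8 without the 12 month mice. Pairs lower at 12 months went from 5 to 10 with DESeq2. In males alone the pairs lower at 12, 15, 18 and 21 months numbered 1, 0, 4 and 4, and without the filter 9 were lower at 26 months. With DESeq2 49 of the 51 called pairs passed, in males alone 20, in mice 16 to 56 24, with the neuron or the oligodendrocyte covariate 36 and without the libraries that stand apart 47. The slope of Grin2b in choroid plexus became 0.000146 with the neuron and 0.000579 with the oligodendrocyte covariate. The cause of these changes was not tested. In males alone 2 members had slopes that differed by region. In 12 month mice 0 members were higher and 1 lower in males. Mice 16 to 56 left 1 ratio past the threshold, with slopes of 0.00836 for Grin2a to Grin2b and -0.0138 for Gria4 to Gria2, and males alone gave 0.00611 for Gria1 to Gria2.

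With the mouse as a replicate block, 13 members were higher and 11 lower in posterior hippocampus, 12 higher and 18 lower in visual cortex, and 8 had slopes that differed by region. Apart from Cacng7 the block changed no call between neighbouring regions. Leaving out each of 14 mice gave 37 to 51 falling and 5 to 10 rising pairs. It gave 4 to 6, 2 to 7, 6 to 13, 24 to 33, 14 to 18 and 8 to 21 lower pairs at the 6 later ages and 14 to 22 higher combinations. It gave 14 to 14 higher and 11 to 12 lower members in posterior hippocampus and 11 to 12 and 18 to 18 in visual cortex. Leaving out each of 3 mice gave 5 to 8 members whose slopes differed by region, and each of 10 mice 5 to 10 pairs higher and 7 to 8 lower in males and 0 to 0 with an age by sex difference. Without each of 59 mice, ratios past the threshold numbered 3 to 4, with slopes of 0.00672 to 0.00823, 0.00754 to 0.00903 and -0.0182 to -0.0140. Levels near 1 CPM, such as those of Cacng8 in pons and of Grin3b in entorhinal cortex, rest on few reads in a library.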

Other observations

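Across the 15 regions, some pairs of members had like profiles of mean level. Grin2d and Grin3a, NMDA receptor subunits high in thalamus and hypothalamus, correlated at r = 0.909 over 15 regions, Cacng3 and Gria3, both high in neocortex, at 0.904, and Cnih2 and Grm5 at 0.896. Grin3a and Neto2 ran opposite to each other, at r = -0.846. These values are descriptions over regions that share mice and library preparation.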
